A study of Mus musculus with 4 samples.

Results

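The genes described here are the mouse zinc finger genes whose symbol is Zfp followed by a number below 500 with nothing after it. They were chosen by that symbol, taken through each probe's accession, with Zfp42, Zfp57 and Zfp352 left out. In all, 241 of 41174 gene probes on the array, for 146 of 18217 genes with a symbol, met the rule. RNA came from 4 embryonic stem cell (ESC) lines, each derived from an E3.5 blastocyst of crosses between mice heterozygous for both loci, and was hybridised to 1 one-colour (Cy3) array per line. The 2 wild-type (WT) lines carried 15-1+/+ and 15-2+/+. The 2 lines lacking Dppa2 (KO) were 15-2-/- and also 15-1CT/CT, meaning that each copy of Dppa4 was a conditionally targeted allele. KO against WT therefore contrasts both loci at once. Lines WT 1 and KO 1 came from mother 1046, and WT 2 and KO 2 from mother 875, on a mixed background of 129Sv, C57/BL6 and a transgenic Cre or FLPe strain. Before RNA was taken, cells spent 3 days on gelatin in medium with 15% fetal calf serum and LIF. Each line is 1 derivation, so line and genotype differ together within a pair.

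Most Zfp genes encode nuclear proteins with arrays of Cys2His2 zinc fingers, each finger contacting a few bases of DNA. Many carry a KRAB domain, which recruits Trim28 (KAP1) and through it histone methyltransferases and heterochromatin proteins, and in ESCs this machinery silences retrotransposons. KRAB zinc finger genes lie in tandem arrays of close paralogues. The Zfp name is older than these classes and also covers proteins of other kinds, such as Zfp36, an RNA-binding protein, and Zfp185, a LIM domain protein of the actin cytoskeleton.

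Per array, 28075 to 28849 gene probes exceeded background, with 0 saturated. The targeted gene Dppa2 had log2 signals of 12.10 (WT 1), 12.04 (WT 2), 7.05 (KO 1) and 7.11 (KO 2). The probe of Dppa4 gave 13.38, 13.55, 13.95 and 14.05 in the same order. Of 9 ESC marker genes, 7 had a probe, and all 7 were above background on all 4 arrays. All 7 had positive KO minus WT differences (median 0.83 on the log2 scale, up to 1.91 for Klf4), and limma called 0 of them. Their summed signal was 16.13 and 16.34 (log2) in WT and 17.02 and 17.67 in KO lines. Zfp42, whose groups overlapped, was the brightest of the 7 in WT 2 (15.11) and KO 2 (16.58). Markers of other cells gave signals too, where 68.6% to 70.5% of gene probes exceeded background per array. The lowest signal called above background was 3.24 to 3.59 on the 4 arrays. Near it lay Gata4 (4.30 to 5.23), Elf5 (2.72 to 5.19) and Lum (2.02 to 5.29). The summed signal of 6 trophoblast markers was 17.08 and 17.49 (log2) in WT and 14.81 and 14.24 in KO lines. Most of it was Krt8, at 17.04 and 17.46 in WT and 14.77 and 14.20 in KO lines. Of the 6, 5 were above background on all 4 arrays, all 6 differences were negative, and limma called Hand1 (-4.77) lower. The summed signal of 8 fibroblast markers was 13.85 in WT 1, 12.52 in WT 2, 12.27 in KO 1 and 12.48 in KO 2, with 7 of 8 above background on all 4 arrays. Of these 8, 7 differences were negative, and limma called Mmp2 (-3.45) and Fbn1 (-2.84) lower. That of 6 primitive endoderm markers, all of them above background on all 4 arrays, was 10.39, 9.99, 10.96 and 10.21 in the same order. Of these 6, 5 differences were positive (median of the 6, 1.29) and Dab2 (-1.77) was called lower. These marker calls come from the limma fit by genotype alone, which called 1.68% of all features lower. In it Hand1 was at the threshold, with an adjusted p of 0.0499. With the mother as a replicate block limma called 0 of 21639 features. No marker with a probe was below background on every array. Whether such cells were present, and their part in the differences below, was not tested. In such bulk RNA fewer cells of a type and less RNA per cell cannot be told apart.

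A sequence element that many members share upstream of their start site is shown first, because it was more frequent in the members than in all genes. It is the site bound by ZNF143, the human counterpart of Zfp143, an activator of housekeeping promoters and itself a member. It was searched by its 13 letters, 1 of them free, on both strands in the 250 bases before the first start listed for each gene in RefSeq (GRCm38.p6). Of 117 members with such a sequence, 21 held it (17.9%), against 212 of 27025 genes in all (0.784%) and 12 of 172 Zfp genes numbered 500 or more (6.98%). Among members measured above background on all 4 arrays it was found in 12 of 29 on chromosome 7 (41.4%) and in 6 of 83 elsewhere (7.23%). Of all other genes on chromosome 7, 29 of 2285 held it (1.27%). Overlap with other motifs was not examined. The sites of the chromosome 7 members measured on all 4 arrays and of Zfp454 are printed 5′ to 3′ on the strand that reads TGGGAA first, with the element in capitals and up to 8 bases on either side. Zfp128 and Zfp180, also on chromosome 7, hold a site too but were not above background on any array, and theirs are not printed. Coordinates are GRCm38.p6.
Zfp28 (chr7:6383165-6383193, minus strand): aggcccccTGGGAAGTGTAGTccccagcg
Zfp111 (chr7:24208194-24208222, minus strand): tagcattcTGGGAAATGTAGTcccaaaag
Zfp109 (chr7:24237704-24237732, minus strand): acgcattcTGGGAACTGTAGTtccggcgc
Zfp108 (chr7:24254661-24254689, plus strand): tctcgttcTGGGAAATGTAGTcccagaaa
Zfp108 (chr7:24254717-24254745, plus strand): aggcattcTGGGAATTGTAGTtctggagc
Zfp93 (chr7:24270337-24270365, plus strand): aggaattcTGGGAATTGTAGTtccaacgc
Zfp60 (chr7:27731336-27731364, minus strand): gtagccccTGGGAAATGTAGTgccgagtg
Zfp84 (chr7:29768520-29768548, plus strand): ccgccttcTGGGAAATGTAGTccactata
Zfp420 (chr7:29859912-29859940, minus strand): ggtggctcTGGGAAATGTAGTccaatggc
Zfp74 (chr7:29954097-29954125, minus strand): aagggctcTGGGAAATGTAGTtcaaagca
Zfp14 (chr7:30051397-30051418, plus strand): gTGGGAAATGTAGTccatggtg
Zfp260 (chr7:30095038-30095066, plus strand): gagacttcTGGGAAATGTAGTtcacagtt
Zfp146 (chr7:30169852-30169880, minus strand): gtgccttgTGGGAAGTGTAGTccaaagtc
Zfp454 (chr11:50887658-50887686, minus strand): gagccttcTGGGAATTGTAGTttcggcca
The letter that varies was A, T, C or G, and Zfp108 held 2 sites. Over all members, 17 of the 23 sites read TGGGAA on the strand of the gene, and the base of the site nearest to the start lay 2 to 212 bases upstream of it (median 57). The whole upstream stretch of Zfp74 is given because this gene had the largest difference among chromosome 7 members. It holds 9 CG dinucleotides against a median of 10 over the 29 chromosome 7 members and of 6 over all genes.
Zfp74 (chr7:29954066-29954315, minus strand): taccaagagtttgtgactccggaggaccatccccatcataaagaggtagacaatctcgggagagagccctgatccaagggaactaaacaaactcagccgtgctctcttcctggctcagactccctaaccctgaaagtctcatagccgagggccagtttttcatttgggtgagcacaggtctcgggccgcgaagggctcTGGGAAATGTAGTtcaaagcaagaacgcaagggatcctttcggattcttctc
A match is a description of these letters and not evidence of binding.

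Signals are given as log2 of the scanner's processed intensity after each array was scaled to its 75th percentile, and a difference is KO minus WT. Of the 146 members, 138 were well above background on all 4 arrays, and these are set beside all 19864 genes and transcripts that were. The members were picked by name. They were proposed with the genotype differences of these arrays known, though, so those differences are described, and no test of them is used as support. The members were mostly a little higher in the KO lines: 103 of 138 differences were positive and 35 negative, where 59.2% of all genes were positive. Their median was 0.19, with quartiles at -0.0012 and 0.40 against 0.09 for all genes. Relative to the median of all genes, 87 of 138 members were higher. The median over members was 0.17 within the lines of mother 1046 and 0.24 within those of mother 875, against 0.09 and 0.08 for all genes. Zfp genes numbered 500 or more had a median of 0.18 over 142 genes, with 102 positive.

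**Figure D1:**
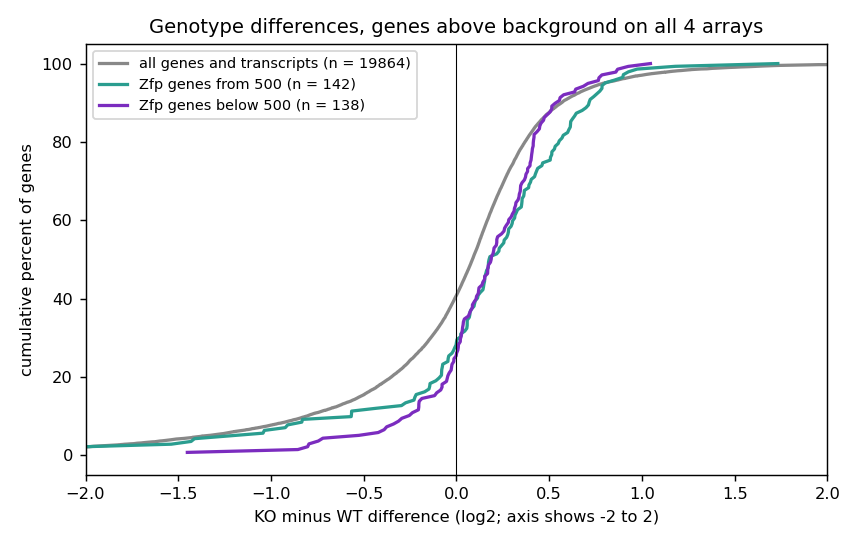
Cumulative percent of genes (vertical axis) against the KO minus WT difference in log2 (horizontal axis, shown from -2 to 2) for the 138 members, the 142 Zfp genes numbered 500 or more and all 19864 genes and transcripts above background on all 4 arrays. The members' median is 0.19 and that of all genes 0.09, and 1 member lies beyond 1 in each direction.

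The differences were small. Only Zfp459 was at least 2-fold higher and only Zfp202 at least 2-fold lower, which is 1.45% of the members, where 10.6% of all genes and 7.75% of Zfp genes numbered 500 or more differed by that much. Within 0.5 on the log2 scale lay 113 of the 138 members (81.9%), against 72.2% of all genes. Both KO lines were above both WT lines for 67 members (48.6%, against 37.2% of all genes). They were below both for 13 (9.42%, against 23.4% of all genes), and the groups overlapped for 58. Of the Zfp genes numbered 500 or more, 53.5% were above in both KO lines and 13.4% below in both. In the limma fit across all 21639 features, 0 members were called higher (0.176% of all features) and 0 lower (1.68%) at an adjusted p under 0.05. The share over all features depends on the fit: with the mother as a replicate block limma called 0 of 21639 features, and with only features above background on all 4 arrays it called 62 lower and 1 higher of 19864, with 0 members in either. At an unadjusted p under 0.05 the counts were 23 members higher (10.4% of all features) and 2 lower (12.7%). Nothing is read from these counts, since they rest on the contrast with which the genes were proposed. None of the differences between the members and the other sets was tested.

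Among the members higher in the KO lines, Zfp459 had the largest difference. Zfp459, of a zinc finger array on chromosome 13, measured 9.83 and 9.12 in WT 1 and WT 2 and 10.30 and 10.74 in KO 1 and KO 2, 2.06-fold higher (log2 difference 1.05, SE 0.33, n = 2 per group). The groups did not overlap, but the pair of mother 875 differed by 1.62 and that of mother 1046 by 0.47. Zfp454, on chromosome 11, measured 7.20 and 7.12 in WT and 8.12 and 8.05 in KO lines (log2 difference 0.93, SE 0.12, n = 2 per group). Here the lines of each genotype lay close together and both pairs gave nearly the same value, 0.92 and 0.93. Zfp292, a large zinc finger protein first linked to growth hormone expression, measured 9.26 and 9.82 in WT and 10.14 and 10.68 in KO lines (0.87, SE 0.31). Both lines of mother 875 exceeded their partners from mother 1046, so the pairs differed by 0.88 and 0.86. Zfp74 measured 10.85 and 10.57 in WT and 11.48 and 11.65 in KO lines (0.86, SE 0.17), and its other probe gave 0.93.

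Zfp296, a zinc finger protein of pluripotent cells that acts with Klf4, was among the brightest signals here, at 13.83 and 13.73 in WT and 14.52 and 14.61 in KO lines (1.72-fold higher, log2 difference 0.78, SE 0.13). Its groups lay well apart and its other probe gave 0.73. Zfp473, whose human counterpart works in the processing of histone messenger RNA, measured 10.58 and 10.52 in WT and 11.22 and 11.42 in KO lines (0.77, SE 0.14). Zfp30, a KRAB gene linked to adipogenesis, measured 9.37 and 9.04 in WT and 9.98 and 9.95 in KO lines (0.76, SE 0.17). The 4 lines kept the same order by genotype for the remaining 3 of the 10 largest positive differences, Zfp78 (0.71), Zfp39 (0.68) and Zfp97 (0.64). Of the 10, 5 lie on chromosome 7.

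Lower members were fewer, and in several KO 2 was well below KO 1. Zfp202, a transcriptional repressor with SCAN and KRAB domains known for genes of lipid metabolism, measured 7.59 and 7.61 in WT, 6.57 in KO 1 and 5.73 in KO 2, 2.73-fold lower (log2 difference -1.45, SE 0.33, n = 2 per group). The WT lines were alike and both KO lines lower, with differences of -1.02 and -1.88 within the pairs. Zfp185 measured 11.35 and 11.41 in WT and 10.62 and 10.65 in KO lines (-0.75, SE 0.12), and its other probe gave -0.72. Its groups stood apart in both pairs alike, at -0.73 and -0.76. Zfp422 measured 12.04 and 11.88 in WT, 11.56 in KO 1 and 10.76 in KO 2 (-0.80, SE 0.32), and Zfp362 measured 10.31 and 10.25 in WT, 9.98 in KO 1 and 8.99 in KO 2 (-0.80, SE 0.38). In both genes KO 2 lay much farther from the WT lines than KO 1 did. Zfp426 showed the same pattern on its brighter probe, with 11.82 and 11.72 in WT, 11.47 in KO 1 and 10.36 in KO 2 (-0.86, SE 0.43). Its other probe gave a difference of -0.00055 with overlapping groups, so its 2 probes differed.

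Zfp229 measured 8.61 and 8.03 in WT and 8.02 and 7.18 in KO lines (-0.72, SE 0.39), so that WT 2 and KO 1 were almost equal. Zfp36, which encodes tristetraprolin, a protein that binds AU-rich elements of messenger RNA and brings about their decay, measured 10.60 and 10.38 in WT and 10.22 and 9.92 in KO lines (-0.42, SE 0.18). Its other probe gave -0.37. Zfp282 (-0.39), Zfp319 (-0.38) and Zfp90 (-0.31) complete the 10 largest negative differences with 1 sign in both pairs. For Zfp90 the groups overlapped. Genes picked by the size of this difference, of either sign, tend to have groups that stand apart, so that separation is no separate result.

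**Figure D2:**
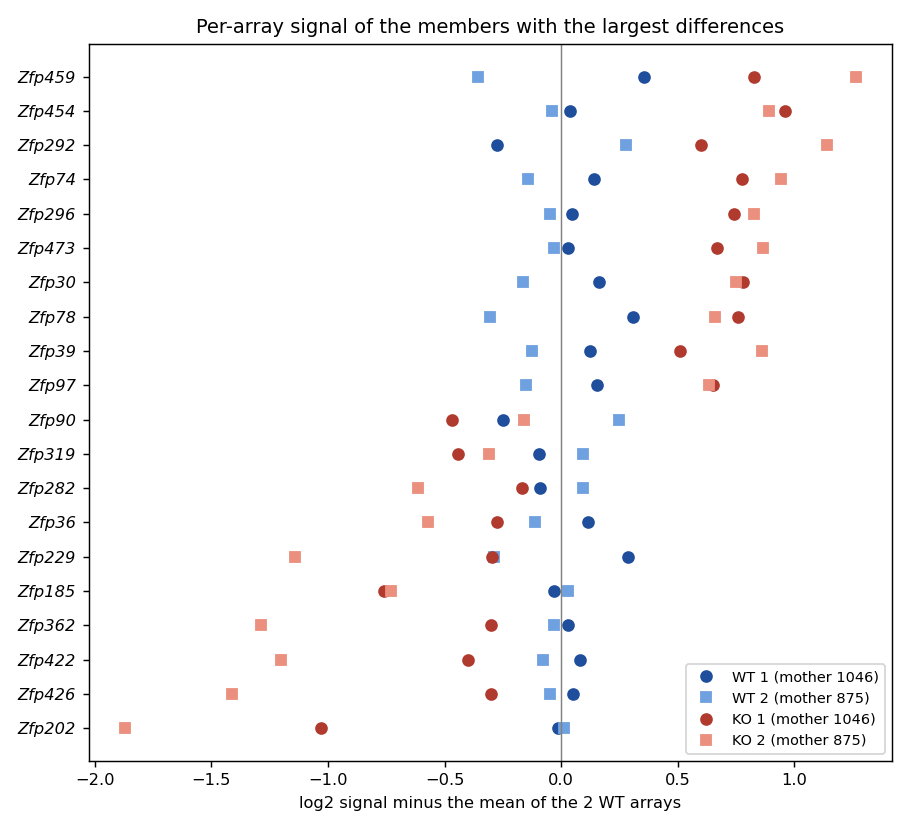
Log2 signal of each of the 4 arrays minus the mean of the 2 WT arrays (horizontal axis) for the 10 largest positive and 10 largest negative differences with the same sign within both mothers. Circles are lines of mother 1046 and squares lines of mother 875, in blue for WT and red for KO; KO 2 lies farthest to the left for Zfp202, Zfp426, Zfp362 and Zfp422.

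Of 19 Zfp genes listed for a known part in transcription, chromatin, RNA decay, signalling or cell division, 17 had a probe under that name and so were members. Apart from Zfp36 and Zfp296, described above, their differences lay between -0.08 and 0.55. Zfp143 itself measured 11.06 and 10.97 in WT and 11.03 and 10.91 in KO lines, a difference of -0.05 (SE 0.13) with overlapping groups. Zfp207, a spindle assembly factor, measured 15.03 and 15.16 in WT and 15.14 and 15.12 in KO lines (0.03, SE 0.13). Both genes thus differed by less than the spread between lines, and their signs turned under other scalings or without a line. Zfp281, a regulator of the transition out of naive pluripotency, measured 13.70 and 13.72 in WT and 13.90 and 14.02 in KO lines (0.24, SE 0.13). Zfp462, a chromatin regulator needed in ESCs, measured 13.02 and 12.82 in WT and 13.48 and 13.17 in KO lines (0.40, SE 0.18). Zfp64 measured 13.65 and 13.97 in WT and 14.34 and 14.39 in KO lines (0.55, SE 0.17). In these 3 genes both KO lines exceeded both WT lines on the probe used. The other Zfp462 probe, though, gave 0.08 with overlapping groups.

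Zfp423, a cofactor of SMAD proteins in BMP signalling, measured 9.70 and 9.80 in WT, 9.93 in KO 1 and 10.60 in KO 2 (0.51, SE 0.27), with KO 2 well above the rest. Zfp148, which binds GC-rich promoter sites, had a difference of 0.34, and the neurotrophin receptor interacting factors Zfp369 and Zfp110 had 0.31 and 0.28. For these 3 the groups did not overlap either on the probe used. They did on another probe of Zfp148 (0.08) and on the other probe of Zfp369 (0.50). Zfp131 was at 0.21 with overlap. Zfp217, a subunit of co-repressor complexes, was at 0.07, Zfp365 at 0.04 and Zfp219 at 0.04, whereas Zfp335, a component of histone methyltransferase complexes, was at -0.05 and the ubiquitin ligase gene Zfp91 at -0.08. The groups overlapped for all 5 of these.

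Chromosome 7 held the most members. Of 31 measured on all 4 arrays, 27 had a positive difference and 22 had both KO lines above both WT lines, with a median of 0.40. Of the members on other chromosomes, 76 were positive and 45 were above in both KO lines, with a median of 0.15. Other genes of chromosome 7 had a median of 0.10 over 1037 genes, with 61.1% positive and 41.9% above in both KO lines, so the chromosome as a whole stood at the level of all genes. The 40 Zfp genes numbered 500 or more on this chromosome had a median of 0.23, with 30 positive. The chromosome 7 median of the members was 0.32 between the lines of mother 1046 and 0.51 between those of mother 875. Chromosome 17 had 12 of 14 members positive, 10 members above in both KO lines, and a median of 0.31. Its other genes had a median of 0.12, with 61.7% positive and 46.1% above in both KO lines. Chromosome 13 had 12 of 14 members positive and a median of 0.22, where its other genes had 55.4% positive and a median of 0.05. Chromosome 4, with 7 members, had 6 positive and a median of 0.40, and all 3 members on each of chromosomes 1 and 16 were positive, with medians of 0.37 and 0.34. The medians of the other genes on chromosomes 4, 1 and 16 were 0.08, 0.02 and 0.07. On chromosome 6, 4 of 9 were positive and the median was -0.08. On chromosome 12, 0 of 3 were positive (median -0.11), and on the X chromosome 2 of 4 (median -0.11). The other genes had medians of 0.07 on chromosome 6, 0.03 on chromosome 12 and -0.02 on the X chromosome. Chromosomes 8 and 18 each had 3 of 6 positive, with medians of -0.02 and 0.05. Their other genes had medians of -0.02 and 0.08, and on chromosome 8 only 47.3% of these were positive and 13.1% above in both KO lines. These differences between chromosomes were not tested.

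**Figure D3:**
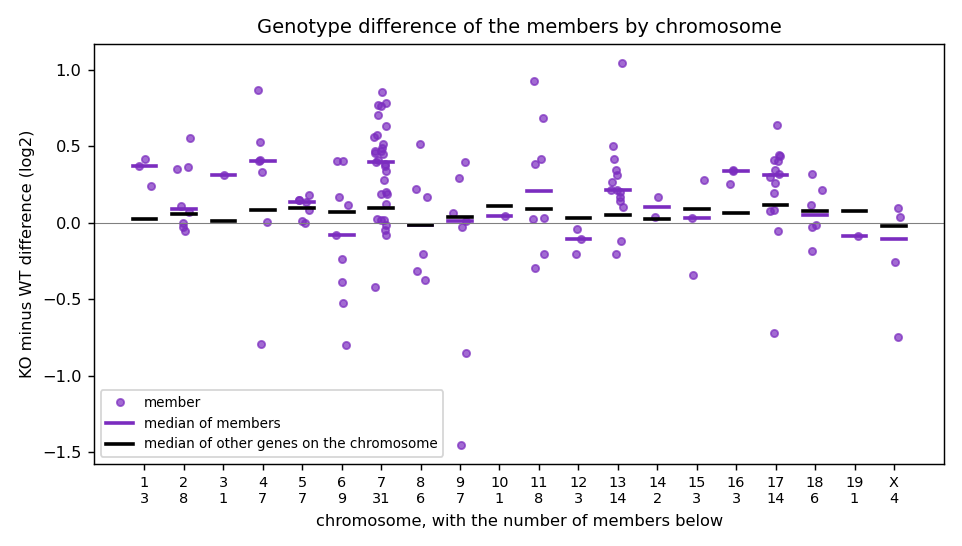
KO minus WT difference in log2 (vertical axis) of each of the 138 members by chromosome (horizontal axis, with the number of members). Points are genes, purple bars the median of the members and black bars the median of the other genes of the chromosome; on chromosome 7 the members' median is 0.40 and that of the other genes 0.10.

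Members often lie side by side. Runs were formed where neighbouring members had at most 5 protein-coding genes between them in the RefSeq gene order, and 6 runs held at least 4 members. The run from Zfp180 to Zfp94 on chromosome 7 had 9 members, of which 8 were measured on all 4 arrays. All 8 were positive, 7 without overlap, with values from 0.20 for Zfp109 to 0.64 for Zfp61 and a median of 0.43. For comparison, 59.2% of all genes were positive, and 37.2% had both KO lines above both WT lines. The run from Zfp84 to Zfp146, also on chromosome 7, had 9 measured members, with a median of 0.34. On their brightest probes all 9 were positive and 6 without overlap, from 0.02 for Zfp84 to 0.86 for Zfp74. The other Zfp146 probe, though, gave -0.18 with both KO lines below both WT lines, and other Zfp84 probes gave 0.56 and 0.22. Between them these runs hold Zfp235 (0.47), Zfp114 (0.58), Zfp93 (0.47), Zfp30 (0.76), Zfp420 (0.56) and Zfp27 (0.46). Another run on chromosome 7, from Zfp329 to Zfp446, had a median of 0.09 over 4 measured members. On chromosome 13 the run from Zfp455 to Zfp273 had 6 of 7 measured members positive with a median of 0.34, and on chromosome 17 that from Zfp54 to Zfp229 had 4 of 5 and 0.20. The run on chromosome 6 from Zfp398 to Zfp467 had 2 of 4 and a median of -0.11. In all, 31 of 37 members in runs were positive (median 0.34), and 72 of 101 outside them (median 0.15). Close paralogues may share probe targets; the probes were not aligned here, so how far neighbours share signal was not tested.

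The upstream element did not divide the members of chromosome 7 by their differences. On the brightest probe of each gene, the 12 with it had a median of 0.39 and were all positive. The 17 without it had a median of 0.41 with 14 positive. Among the 12, the other probe of Zfp146 was negative (-0.18). Elsewhere the 6 with it had a median of 0.28 and the 77 without it 0.17. Over all 112 members with an upstream sequence that were above background on all 4 arrays, those with the element had 17 of 18 positive (median 0.36) and those without it 71 of 94 (median 0.21). The element and the chromosome therefore overlap as descriptions. On chromosome 7 the values with and without it were close in the median, and no test of this was made.

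**Figure D4:**
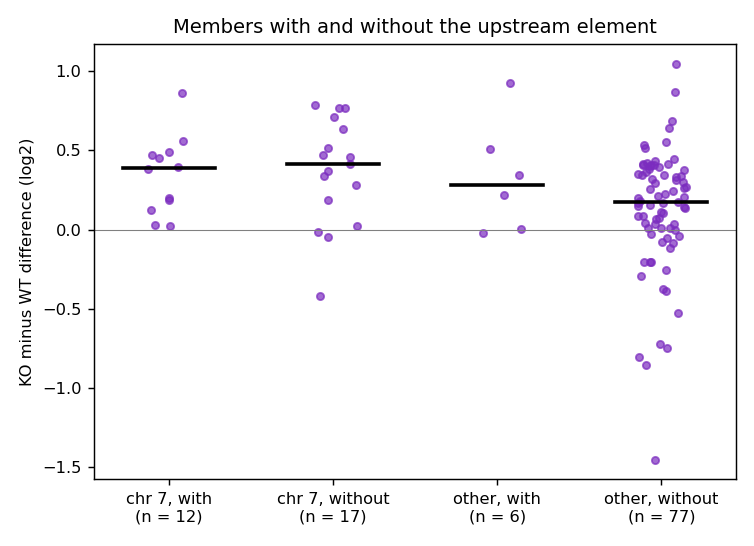
KO minus WT difference in log2 (vertical axis) of 112 members with an upstream sequence, split by chromosome 7 or another chromosome and by whether the 250 bases before the start hold the element. Points are genes and bars are medians: 0.39 and 0.41 on chromosome 7, 0.28 and 0.17 elsewhere, with and without it.

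Within the pairs of lines from 1 mother, 81 members were higher in the KO line in both pairs, 19 were lower in both and 38 had opposite signs. Of all genes, 46.3% were higher in both pairs, against 58.7% of the members and 62.0% of Zfp genes numbered 500 or more. Among all 19864 genes, 5680 were lower in both pairs and 4979 had opposite signs. The widest disagreement was in Zfp287, at 9.57 and 9.70 in WT 1 and WT 2 but 10.12 in KO 1 and 8.75 in KO 2, so the pairs differed by 0.55 and by -0.96. Zfp467 differed by -1.07 among lines of mother 1046 and by 0.01 among those of mother 875.

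**Figure D5:**
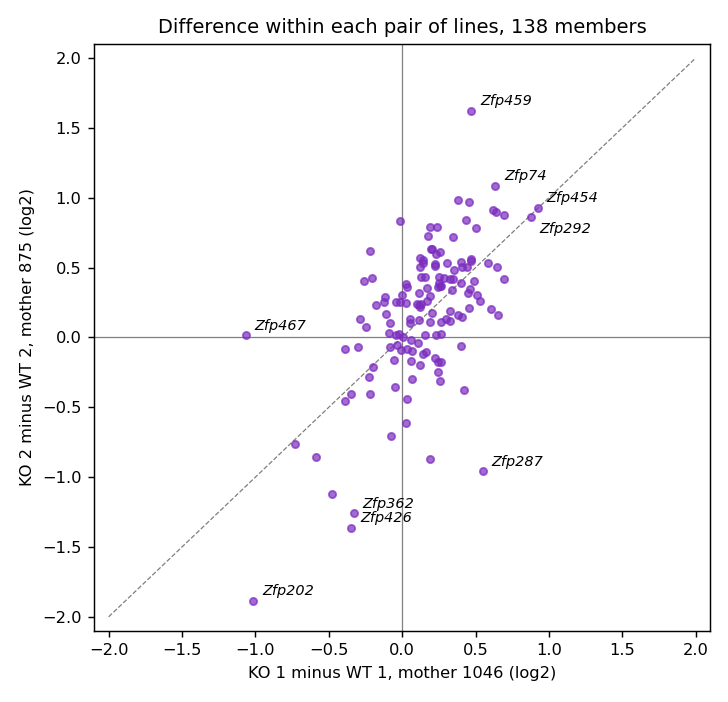
Difference KO 2 minus WT 2 of mother 875 (vertical axis, log2) against KO 1 minus WT 1 of mother 1046 (horizontal axis, log2) for the 138 members; each point is a gene and the dashed line marks equal values. Zfp202 lies at -1.02 and -1.88, Zfp459 at 0.47 and 1.62, and Zfp287 has opposite signs.

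The difference between the 2 mothers, which played no part in the choice of genes, was tested with genotype in the model. Limma called 0 of 138 members and 0 of 19864 genes (0% called), with a smallest adjusted p of 0.634 among members. At an unadjusted p under 0.05 there were 10 members, 3 higher and 7 lower in mother 875, where 7.76% of all genes had such a p. The largest were in Zfp429 and Zfp273, both of the chromosome 13 run. Zfp429 measured 11.00 in WT 1, 9.51 in WT 2, 10.96 in KO 1 and 9.76 in KO 2, and Zfp273 measured 10.86, 9.70, 11.11 and 10.14 in the same order. In both genes the lines of mother 875 were lower whatever the genotype, with differences of -1.35 (SE 0.15) and -1.06 (SE 0.13), without passing the adjusted test. Among the 10 were 2 genes of chromosome 8, Zfp276 (0.68) and Zfp358 (0.53), both higher in mother 875. The 697 other genes of chromosome 8 had a median difference of 0.44 between WT 2 and WT 1 and of 0.16 between KO 2 and KO 1, while on the other autosomes and the X chromosome these medians lay between -0.07 and 0.03. The differences of the chromosome 8 members named above, Zfp319, Zfp90 and Zfp423, are to be read beside those values, and the part of the chromosome in them was not tested.

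Of the 241 probes, 224 were above background on all 4 arrays, 7 on some and 9 on none, and 1 was set aside for an outlier flag. For 61 members 2 or more probes were above background on all 4 arrays. Their differences had the same sign in 49 and opposite signs in 12, and the median distance between the highest and the lowest was 0.12. The widest was that of Zfp426 (0.85), followed by Zfp108, where the brighter probe gave 0.40 and the other 1.04, and Zfp326, at -0.05 and 0.54 at the extremes of 3 probes. Both Zfp108 probes were higher in both KO lines.

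Of the 8 members left, Zfp389 had its only probe set aside. Zfp92, Zfp128, Zfp180 and Zfp474 were not well above background on any array. Zfp300, Zfp458 and Zfp493 were above it on 1 KO array and on no WT array. The signals of these 7 genes lay between 0.96 and 4.17, where the lowest signal called above background was 3.24 to 3.59 on the 4 arrays, so no fold is given.

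The co-repressor genes through which KRAB proteins act were expressed in all lines. Of 20 listed, 18 had a probe, all 18 were above background on all 4 arrays, and limma called 0 of them in either direction; 16 differences were positive and 2 negative, with a median of 0.32, where 59.2% of all genes were positive. At an unadjusted p under 0.05 there were 6 higher and 1 lower, against 10.4% and 12.7% of all features. Trim28, the scaffold that KRAB domains bind, measured 16.03 and 15.95 in WT and 16.49 and 16.55 in KO lines (0.53, SE 0.12). Its groups did not overlap, and with an intensity trend and robust prior in limma it was the 1 gene of this list called. That setting called 80 of 21639 features higher. The heterochromatin protein gene Cbx1 (0.65) and the histone chaperone gene Daxx (0.65) were also higher in both KO lines. So was the histone methyltransferase gene Setdb1, by 0.15, while the heterochromatin protein gene Cbx5 was at 0.04 with overlapping groups. Pphln1, a subunit of the HUSH complex, measured 12.40 and 12.81 in WT and 11.92 and 11.51 in KO lines (-0.89, SE 0.25).

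At the edge of the rule, the last members by number were Zfp474, above background on 0 arrays, and Zfp493, above it on 1 KO array, and the first beyond it were Zfp503, with a difference of -1.54, and Zfp507, with 0.02. Of the genes left out by name, Zfp42 (Rex1), a marker of naive ESCs, measured 13.40 and 15.11 in WT and 13.97 and 16.58 in KO lines, higher in both lines of mother 875. Zfp57, which protects methylation at imprinted loci, measured 10.28 and 9.49 in WT and 11.76 and 11.24 in KO lines, a difference of 1.61 that exceeds that of every member. Zfp352, known from cleavage-stage embryos, did not exceed background on any of the 4 arrays.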

How the data were processed

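Per the file headers, the deposited spot intensity comes from Feature Extraction 10.7.3.1 (Agilent); the processed intensity is background-subtracted and detrended within an array, and the array annotation refers to build mm9. The deposited series table holds log2 values; each column correlated with log2 of its array's processed signal at 0.9999 or more and all had a median of 6.57 to 6.58 over gene probes, so these are taken as quantile-normalized and not centred, which the sources used here do not state.

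From there, control and outlier-flagged spots were left out, spots of a probe averaged, log2 taken and each array scaled to its 75th percentile over gene probes, re-centred on the mean percentile. Of 41174 gene probes, 26690 matched 1 RefSeq symbol (GRCm38.p6), 0 several and 14484 none, and 233 had every spot flagged on an array. For the limma 3.58.1 fit (R 4.3.3, lmFit and eBayes, genotype alone, Benjamini-Hochberg at 0.05) a probe had to be well above background on both arrays of a group; descriptions use all 4 arrays. A gene was represented by its brightest probe, and SE are limma's. The precision is limited by 2 arrays per group. A limma p-value sets a difference against the spread between these lines, moderated by that of all features. In the fit by genotype alone that spread includes the difference between mothers.

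Replicate numbers mark a shared mother, per the labels; across genes, WT 2 minus WT 1 and KO 2 minus KO 1 had a correlation of 0.21. A fit with the mother as a block was run beside the main one. Other alternatives were scaling, background correction with normexp (offset 50), the deposited values, the filter, the mean of probes, the variance prior and each line left out. Members named are the 10 largest differences each way with 1 sign in both pairs and 17 with a textbook role; genes named for their chromosome, run, probes, mother or background level were chosen after their values were seen. The members, lists and rule were chosen with earlier results of these data known. The limma step was also run on simulated data with independent noise and no effect of the mother. The nonzero differences put in exceeded those of every member, so the run does not show how differences of their size are called.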

Additional observations from a re-analysis of the deposited data

Results flagged for a closer look

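Zfp287 had KO minus WT differences of opposite sign in the lines of the 2 mothers, 0.55 in mother 1046 and -0.96 in mother 875. It was the only member with at least 0.5 on the log2 scale each way. With 1 line per genotype and mother the difference between the pairs was not tested, and 1 of its 3 probes was above background on all 4 arrays.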

How the results depend on the processing

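With 2 lines per genotype, small differences cannot be separated from the spread between lines. With the mother as a replicate block, limma called 0 members, as without it, and the median difference of the members stayed at 0.19. That median was 0.37 under median centring, where the median of all genes was 0.27, against 0.09 in the main scaling; relative to all genes it lay between 0.09 and 0.15 over all settings. Leaving out 1 line gave members' medians of 0.18 to 0.22. Calls of members stayed at 0 except 1 higher, Zfp296, with an intensity trend and robust prior, and 1 lower, Zfp202, without KO replicate 1 (0 to 1 over the lines left out), where KO 2 stands alone and is assumed to vary like the WT lines. Co-repressor calls went from 0 to 1, Trim28, with the trend. Members above the median of all genes numbered 83 to 92. The chromosome 7 median relative to all genes ran from 0.24 without KO replicate 2 to 0.44 without WT replicate 1. The alternatives for these last 3 results, the co-repressor calls, the members above the median of all genes and the chromosome 7 median, were chosen after seeing the data. No member was called between the mothers under any setting run. Of 35 named members, between 0 and 3 changed sign under a setting: Zfp143, Zfp207, Zfp217, Zfp219, Zfp335, Zfp365 and Zfp91, none of them among the 20 largest differences.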

Other observations

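Other upstream motifs were not as frequent in the members. The E-box CACGTG was found in 4 of 117 members (3.42%) and in 6.05% of all genes, the E2F motif TTCCCGCC in 2 (1.71%) against 1.88%, the cyclic AMP response element TGACGTCA in 5 (4.27%) against 1.62%, and the NRF1 site in 3 (2.56%) against 0.781%. Each was searched on both strands in the same 250 bases. The members held a median of 12 CG dinucleotides there, against 6 over all genes and 9 over Zfp genes numbered 500 or more, with a median GC content of 54.8% against 52%.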
